A study of Mus musculus with 3 samples.

Results

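Genes named for the formative and primed epiblast, 9 of the 17997 listed in at least 1 library, were followed through the RNA-seq libraries: the transcription factor genes Otx2, Pou3f1, Zic2, Zic5, Sox3, Foxd3 and Sall2, the chromatin protein gene Utf1 and the growth factor gene Fgf5. They were found by their Entrez gene numbers, and all 9 had a row in each library. The libraries came from the 46C line of mouse embryonic stem cells, of strain 129, which was built with a fluorescent reporter at the Sox1 gene, grown on gelatin with serum and leukemia inhibitory factor. One culture carried the empty vector PB and was taken at passage 2 (empty vector P2, the control), and cultures that carried lef1 in the same vector, PB-Lef1, were taken at passage 2 (Lef1 P2) and passage 5 (Lef1 P5). The Lef1 protein binds DNA together with beta-catenin when Wnt signals arrive. The sources used here do not give the promoter of the introduced gene or say whether the cultures are clones or pools. Lef1 P5 differs from the control in passage as well as in lef1, and these cannot be told apart. Each group has 1 library, so no test between conditions and no p-value is given.

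Mouse embryonic stem cells resemble the naive epiblast of the blastocyst. As they leave that state, FGF/ERK signalling and loss of naive factors open the way to a formative and then a primed state, in which Otx2 and Pou3f1 bind new enhancers together with the Oct4 protein and Fgf5 becomes strongly expressed. Several of these factors (Otx2, Pou3f1, Zic2, Sox3) also act later in the neural plate, and Otx2 is active in visceral endoderm too.

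Levels are given in FPKM (reads scaled to transcript length and library size) as deposited, with exact Poisson 95% intervals in parentheses, which cover counting error only and neither the difference between cultures nor amplified copies of reads. The libraries held 9225401, 9170554 and 9380813 expected reads in the order control, Lef1 P2, Lef1 P5, which all lists of values follow. Lef1 itself was at 1.49, 135 and 214 FPKM, following the labels. The naive markers Zfp42 (362, 279 and 386 FPKM) and Nanog (160, 167 and 176 FPKM) were high in every library, as embryonic stem cell cultures under this factor are known to show. A call of higher or lower needed a ratio of FPKM + 1 of at least 2-fold, and genes with at least 3 FPKM and 20 reads in the higher library are the ones tested. Fewer cells expressing a gene and less of its RNA per cell cannot be told apart in these bulk libraries.

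The 9 genes spanned a wide range. Utf1 alone made up 92.0%, 85.2% and 86.9% of their summed level. The other 8 together came to 34.4, 35.3 and 44.8 FPKM. In the control the order from the top was Utf1, Otx2, Foxd3, Pou3f1, Zic5, Zic2, Sall2, Sox3 and Fgf5, where the counting intervals of Otx2 and Foxd3, of Foxd3 and Pou3f1, and of Zic5 and Zic2 overlapped. In Lef1 P2 Otx2 stood clear of Foxd3, while Zic5 and Pou3f1, Pou3f1 and Zic2, Zic2 and Sall2, and Sall2 and Sox3 overlapped. In Lef1 P5 Pou3f1 had moved below Zic2, and the overlapping neighbours were Zic5 and Zic2, Zic2 and Pou3f1, and Pou3f1 and Sall2.

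**Figure D1:**
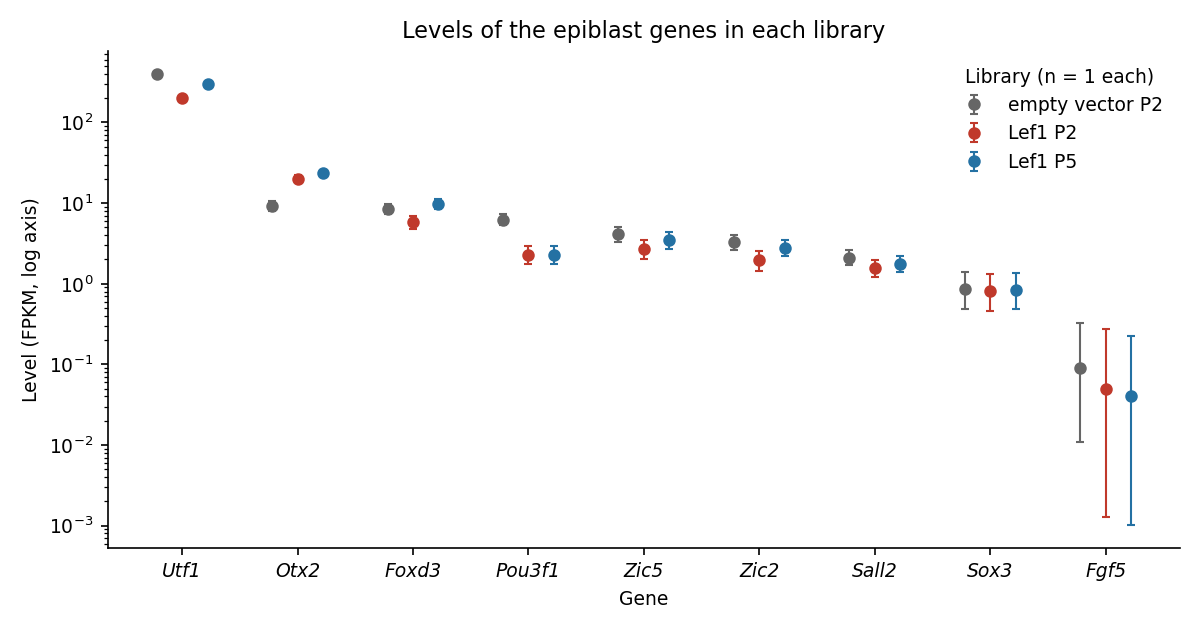
FPKM (log axis) of the 9 genes in the 3 libraries, with the control drawn as empty vector P2; points are single libraries and bars are 95% counting intervals. Otx2 was highest in Lef1 P5 (23.8 FPKM) and lowest in the control (9.26 FPKM), while Pou3f1 was highest in the control (6.26 FPKM).

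Otx2 encodes a homeodomain protein that drives the exit from the naive state and patterns the anterior neural plate. It was at 9.26 FPKM (7.98 to 10.7) in the control, 20.2 FPKM (18.3 to 22.3) in Lef1 P2, then 23.8 FPKM (21.8 to 26.0) in Lef1 P5, from 186, 406 and 491 reads. Both Lef1 libraries lay above the empty-vector library without overlap of their intervals. The ratio was 2.18 (1.83 to 2.61) at passage 2 and 2.57 (2.17 to 3.06) at passage 5, and Otx2 was called higher in both. Rescaling the libraries by TMM (trimmed mean of M values) or by median of ratios put the log2 ratio at passage 2 at 0.90 or 0.89 instead of 1.05 and ended that call, as did a pseudocount of 5 FPKM (0.82). The call at passage 5 held under these settings, at 1.30, 1.32 and 1.02. Between the Lef1 libraries the ratio was 1.18 (1.03 to 1.35) and not called. The transcript length used for Otx2, an average over its RefSeq isoforms, was 2232, 2253 and 2249 bases.

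Endoderm cells are known to express Otx2, and the summed level of endoderm markers was higher in both Lef1 libraries than in the control. The 13 endoderm markers listed in the files summed to 97.9 FPKM in the control, 1338 FPKM in Lef1 P2, and 345 FPKM in Lef1 P5. At passage 2 all 13 were tested and 12 were called higher, beside 6.49% of all tested genes. At passage 5, 10 were tested and 9 called higher, beside 1.40% of all tested genes. Of the 13, 11 lay above the control there and 2 below. Those below were Cubn (2.68, 33.0 and 2.53 FPKM) and Hnf4a (2.13, 4.55 and 0.59 FPKM). Afp and Ttr, also on that list, were not analysed here. The most strongly expressed in Lef1 P2 were Lamb1 (31.6, 330 and 78.7 FPKM) and Col4a1 (17.0, 316 and 73.4 FPKM), and in Lef1 P5 Lama1 (24.0, 277 and 85.2 FPKM) was highest, all of which encode basement membrane proteins. Otx2 was highest in Lef1 P5, where the endoderm sum was well below that of Lef1 P2. The part of endoderm cells in the Otx2 level was not tested.

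The RefSeq promoter table (build GRCm38.p6, which differs from the build of the deposited tables) lists 4 start sites for Otx2. Of these, the 250 bases before one start hold the letters TAATCC, the core bound by OTX-type homeodomains, read on the opposite strand 211 bases before the start, and those before another hold an inverted CCAAT 70 bases before it. Those before a further start hold TATAAA 192 bases before it, in a window that overlaps the CCAAT window and is not shown. The TAATCC and CCAAT windows are shown because Otx2 is the member with the higher level under Lef1, with the matches in capitals.
Otx2, chr14:48665110-48665359, minus strand: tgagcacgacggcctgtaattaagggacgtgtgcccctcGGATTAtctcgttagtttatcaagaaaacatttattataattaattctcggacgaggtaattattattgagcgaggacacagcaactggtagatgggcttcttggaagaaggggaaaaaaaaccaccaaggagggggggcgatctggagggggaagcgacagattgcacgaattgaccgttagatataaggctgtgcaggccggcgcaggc
Otx2, chr14:48667509-48667758, minus strand: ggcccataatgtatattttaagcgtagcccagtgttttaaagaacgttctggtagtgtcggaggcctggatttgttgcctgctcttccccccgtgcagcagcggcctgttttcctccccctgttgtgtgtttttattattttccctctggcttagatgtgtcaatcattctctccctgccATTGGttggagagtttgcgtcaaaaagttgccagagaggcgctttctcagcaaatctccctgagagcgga
The letters CTTTGAT and CTTTGTT, to which TCF/LEF factors bind, were in none of the 10 windows found for 6 of the 9 genes (both strands searched), and they occur in 3.21% and 5.03% of the 32851 windows of this length in the table. TAATCC occurs in 6.25%, CCAAT in 33.8% and TATAAA in 12.4% of them. Pou3f1, Zic2 and Sox3 had no entry.

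Pou3f1 encodes the POU-homeodomain protein Oct6, which takes over with Otx2 at formative enhancers and later acts in neural progenitors. It was at 6.26 FPKM (5.36 to 7.27) in the control, 2.29 FPKM (1.76 to 2.94) in Lef1 P2, then 2.27 FPKM (1.74 to 2.90) in Lef1 P5, from 171, 62 and 63 reads. The Lef1 libraries did not differ beyond counting error (ratio 0.991, 0.687 to 1.43), and both lay below the empty-vector library without overlap. The ratios to the control were 0.366 (0.269 to 0.492) and 0.363 (0.267 to 0.487), and Pou3f1 was called lower in both comparisons. With a pseudocount of 5 FPKM, which shrinks the ratios of weakly expressed genes, both calls ended, at log2 ratios of -0.63 and -0.63. Otx2 and Pou3f1, which are known to work together, thus stood on opposite sides of the empty-vector library in both Lef1 libraries.

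Among the 6 tested members, 1 was called higher and 1 lower at passage 2, beside 6.49% higher and 1.82% lower (8.31% in either direction) of all 10651 genes tested. At passage 5 the same 2 genes were called, again of 6 tested members, beside 1.40% higher and 1.28% lower (2.69% in all) of 10121 genes. Between the Lef1 libraries 0 of 4 tested members were called, beside 1.88% higher and 6.86% lower (8.74% in all) of 10593 genes. The split of all calls moved with the scaling: 78.1% of calls at passage 2 were higher as deposited, 62.3% after median-of-ratios rescaling, and 62.5% after TMM rescaling, while between the Lef1 libraries 21.5%, 45.8% and 43.4%. These scalings shifted the median log2 ratio of all genes by -0.14 in both cases at passage 2 and by 0.18 and 0.16 between the Lef1 libraries. Sall2, Sox3 and Fgf5 did not reach 3 FPKM in any library and could not be called.

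**Figure D2:**
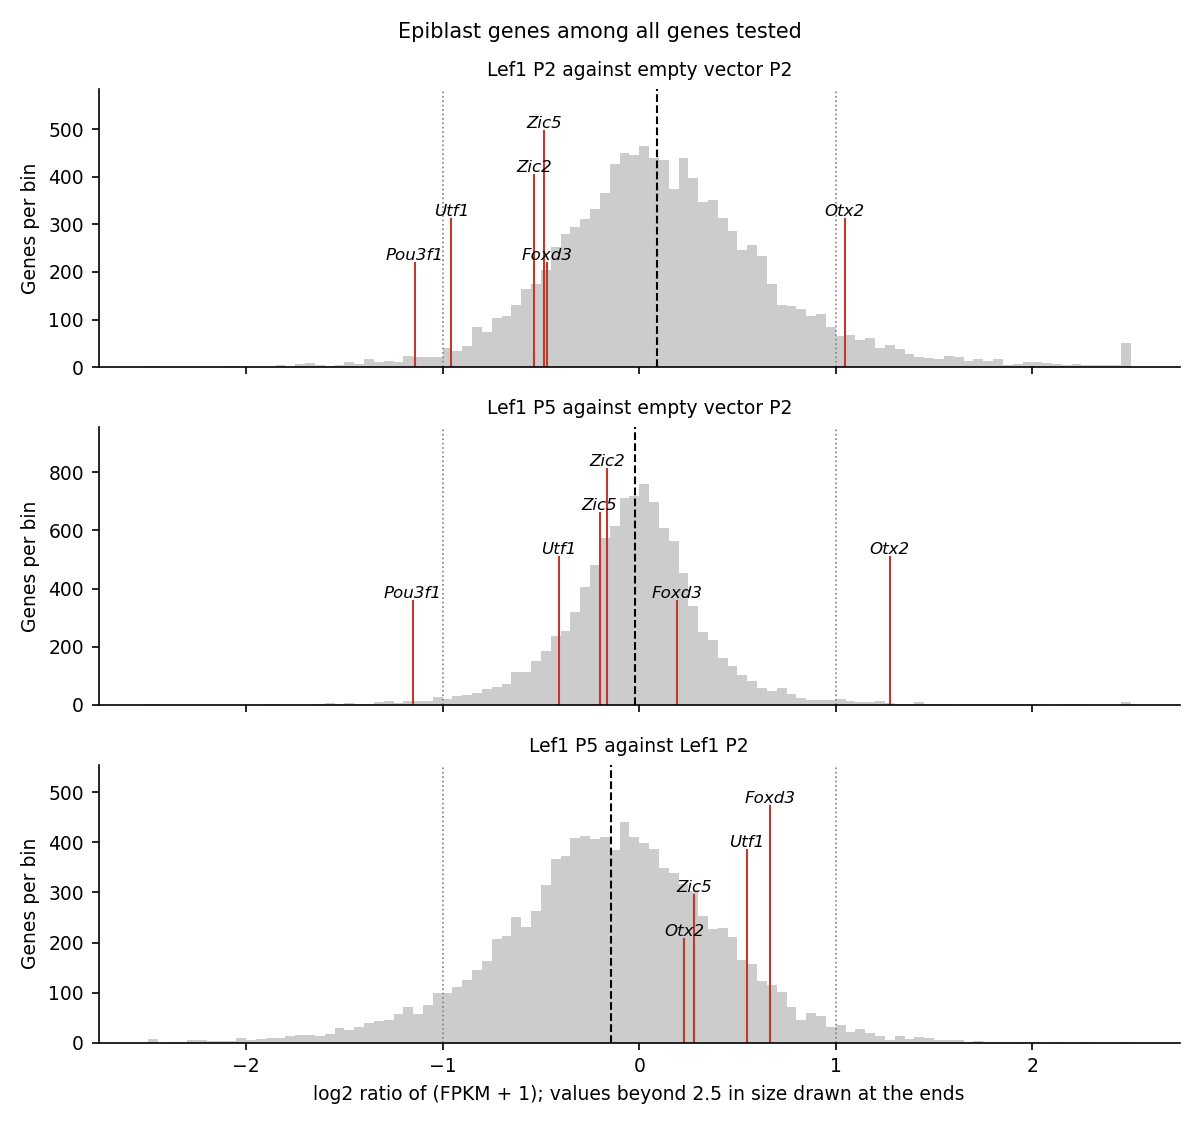
Histograms of the log2 ratio of FPKM + 1 over all genes tested in each comparison, with the tested members as red lines, the median as a dashed line and the 2-fold thresholds dotted. At passage 5 Otx2 (1.27) and Pou3f1 (-1.15) lay in opposite tails, with 99.3% and 0.721% of tested genes below them.

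Utf1 encodes a chromatin-associated protein of embryonic stem cells and epiblast and is a textbook target of Oct4 and Sox2. It was at 394 FPKM (382 to 407) in the control, 203 FPKM (194 to 212) in Lef1 P2, then 297 FPKM (287 to 308) in Lef1 P5, from 4010, 2041 and 3082 reads. The intervals of the libraries did not overlap, with Lef1 P5 between the others. At passage 2 the ratio was 0.514 (0.487 to 0.542), with a log2 ratio of -0.96 that was just short of the threshold. Rescaled, it was -1.12 (median of ratios) or -1.11 (TMM), and Utf1 was called lower. The ratio was 0.753 (0.719 to 0.790) at passage 5 and 1.46 (1.38 to 1.55) between the Lef1 libraries. Sox2, the paralog of Sox3 and a regulator of Utf1, was at 254, 192 and 205 FPKM. Its ratios to the control were 0.757 (0.727 to 0.788) and 0.807 (0.776 to 0.839).

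Foxd3 encodes a forkhead repressor that pluripotent cells and later the neural crest depend on. Its level was 8.42 FPKM (7.23 to 9.74) in the control, 5.80 FPKM (4.82 to 6.92) in Lef1 P2, then 9.78 FPKM (8.51 to 11.2) in Lef1 P5, from 180, 123 and 213 reads. Lef1 P2 was the low library, while the intervals of the other libraries overlapped. The ratio was 0.689 (0.543 to 0.871) at passage 2, 1.16 (0.948 to 1.42) at passage 5 and 1.69 (1.34 to 2.12) between the Lef1 libraries. None of these was called. Foxd3 was the member with the largest ratio of Lef1 P5 to Lef1 P2, and 94.0% of tested genes lay below it.

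Zic2 and Zic5 encode zinc-finger proteins of the epiblast and neural plate and are neighbours on chromosome 14. Zic2 was at 3.27 FPKM (2.62 to 4.03), 1.95 FPKM (1.46 to 2.56) and 2.81 FPKM (2.22 to 3.51) in the control, Lef1 P2 and Lef1 P5, from 88, 52 and 77 reads. Zic5 was at 4.14 FPKM (3.32 to 5.09), 2.68 FPKM (2.03 to 3.47) and 3.47 FPKM (2.73 to 4.34), from 89, 57 and 76 reads. The pair kept the same order of libraries, with Lef1 P2 lowest and Lef1 P5 between. At passage 2 the ratios were 0.596 (0.415 to 0.850) for Zic2 and 0.647 (0.456 to 0.913) for Zic5, and at passage 5 their intervals, 0.625 to 1.18 and 0.609 to 1.15, held 1. The noncoding gene 2610035F20Rik beside them rested on 3, 1 and 1 reads.

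Utf1, Foxd3 and Zic5 had their lowest level in Lef1 P2, and the 250 bases before their starts are shown side by side for that reason. Foxd3 was highest in Lef1 P5, the others in the control. For Zic5 the counting intervals of Lef1 P2 and Lef1 P5 overlapped. Capitals mark GGGCGG (GC box, in 32.7% of all windows) for Utf1, at 138, 133, 85 and 56 bases before the start with the pair farthest from it sharing a base, and TGACGTCA (cyclic AMP response element, in 1.55%) and CACGTG (E-box, in 6.02%) for Foxd3.
Utf1, chr7:139943606-139943855, plus strand: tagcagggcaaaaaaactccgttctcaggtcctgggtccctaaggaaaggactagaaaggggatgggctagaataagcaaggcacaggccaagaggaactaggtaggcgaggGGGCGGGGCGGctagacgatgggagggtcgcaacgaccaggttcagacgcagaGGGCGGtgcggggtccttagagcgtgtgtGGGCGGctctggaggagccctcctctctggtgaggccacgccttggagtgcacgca
Foxd3, chr4:99656049-99656298, plus strand: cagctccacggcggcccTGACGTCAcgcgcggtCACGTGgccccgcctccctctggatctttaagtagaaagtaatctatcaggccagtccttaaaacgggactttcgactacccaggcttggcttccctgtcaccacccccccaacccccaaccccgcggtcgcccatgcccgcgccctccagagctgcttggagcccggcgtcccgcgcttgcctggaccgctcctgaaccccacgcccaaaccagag
Zic5, chr14:122465659-122465908, minus strand: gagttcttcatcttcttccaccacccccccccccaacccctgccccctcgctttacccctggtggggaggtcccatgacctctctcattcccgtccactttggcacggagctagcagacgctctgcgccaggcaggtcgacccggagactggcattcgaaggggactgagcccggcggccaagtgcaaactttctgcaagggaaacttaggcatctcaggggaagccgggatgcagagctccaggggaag
Zic5 held none of the motifs searched, which were the TCF/LEF, OTX, GC box, CCAAT, E-box and cyclic AMP letters above, the octamer ATGCAAAT of POU factors, the SOX letters ACAATG and TATAAA. The octamer and ACAATG were in none of the 10 windows of the members and in 1.60% and 10.7% of all windows. A match in such a window is a description of its letters only. The windows of Utf1, Foxd3 and Zic5 held 61.6%, 65.6% and 62.4% G or C, beside 42.0% to 53.6% for the 4 Otx2 windows and a median of 52.4% over all windows. The 2 windows of Sall2, which also had its lowest level in Lef1 P2, held 28.0% (with CCAAT and TATAAA) and 64.4%, and that of Fgf5 held 70.8%.

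Sall2 encodes a zinc-finger protein of the spalt family. Its levels of 2.11 FPKM (1.70 to 2.59), 1.55 FPKM (upper bound 1.97) and 1.76 FPKM (1.39 to 2.20) overlapped in all 3 libraries, from 92, 67 and 78 reads. Its ratio at passage 2 was 0.735 (0.528 to 1.02). The abundant family members Sall4 (40.6, 51.2 and 57.9 FPKM) and Sall1 (41.6, 31.5 and 25.8 FPKM) moved apart, Sall4 upward with a ratio of 1.43 (1.34 to 1.51) and Sall1 downward with 0.620 (0.578 to 0.666) at passage 5, and neither was called.

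Sox3, an X-linked relative of Sox2 that marks epiblast and neural progenitors, was at 0.85, 0.81 and 0.84 FPKM from 16, 15 and 16 reads. At this depth its ratios to the control could lie anywhere from 0.439 to 2.06 at passage 2 and from 0.463 to 2.11 at passage 5, so a 2-fold difference was not excluded. Sox1, the related gene that carries the reporter in this line, was at 1.06 FPKM (0.754 to 1.45), 0.88 FPKM (0.602 to 1.24) and 0.43 FPKM (0.246 to 0.698), with a ratio of 0.406 (0.212 to 0.743) at passage 5. Reads of the reporter itself were not analysed here.

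Fgf5, the secreted growth factor that marks primed epiblast most sharply, rested on 2, 1 and 1 reads, or 0.09 FPKM (0.0109 to 0.325), 0.05 FPKM (0.00127 to 0.279) and 0.04 FPKM (0.00101 to 0.223). These counts lie under the 3 reads used as a floor, and no ratio is given. The related ligand gene Fgf4, through which embryonic stem cells signal to themselves, was at 78.2, 64.5 and 55.6 FPKM, and its receptor gene Fgfr1 at 27.8, 15.9 and 17.0 FPKM. Of 11 FGF and ERK genes, 5 were above the control at passage 2 and 6 below. The receptor genes Fgfr2 (1.75, 2.53 and 4.24 FPKM) and Fgfr4 (3.50, 6.53 and 2.10 FPKM) were among those above. Of the 10 tested there only Egr1, an immediate-early gene, was called (from 4.60 to 17.2 FPKM), beside 8.31% of all tested genes. Egr1 was back to 3.84 FPKM in Lef1 P5, where 0 of 11 were called against the control, beside 2.69%. Between the Lef1 libraries Fgfr4 and Egr1 were called lower, beside 6.86% of all tested genes.

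**Figure D3:**
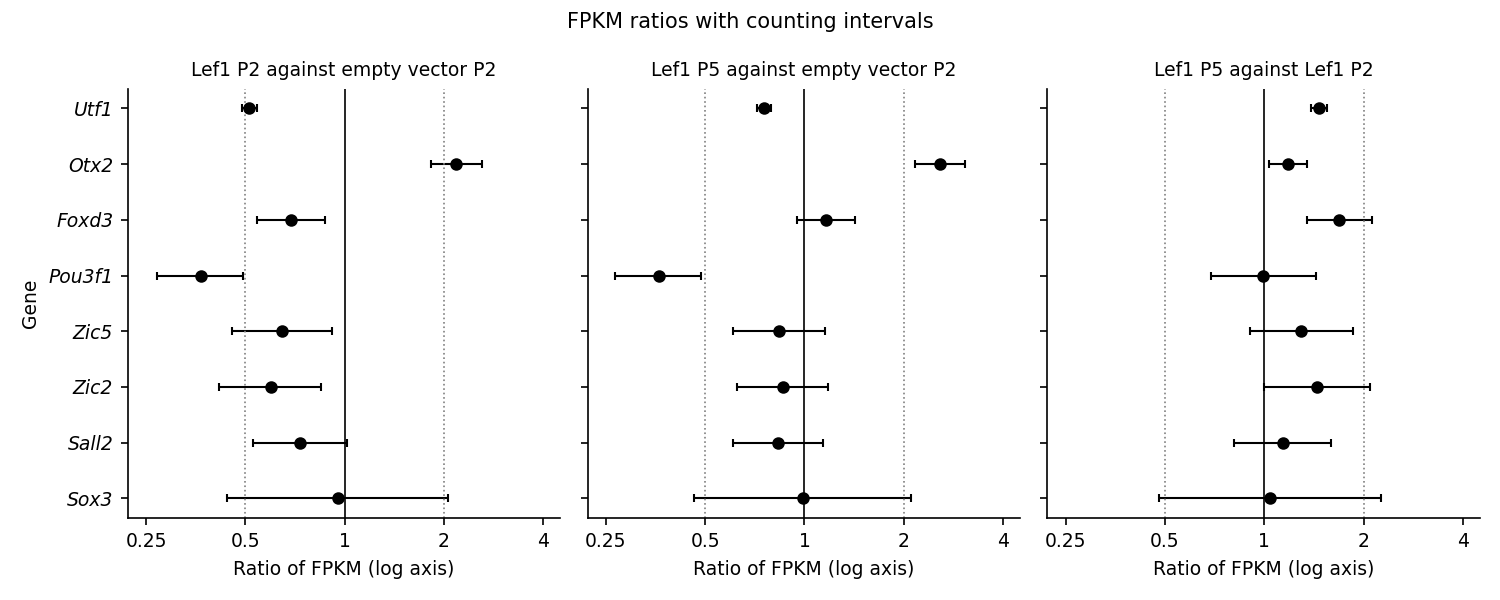
Ratio of FPKM (log axis) with 95% counting intervals for the 8 members other than Fgf5 in the 3 comparisons; the solid line is 1 and the dotted lines are 2-fold. At passage 2 the intervals of 5 members lay below 1 and that of Otx2 above it, and between the Lef1 libraries those of 4 members lay above 1.

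Set side by side, 8 of the 9 genes had a lower level in Lef1 P2 than in the control, all but Otx2, beside 42.4% of all tested genes. The 8 include Fgf5 (2 reads in the control against 1 in Lef1 P2) and Sox3 (16 against 15 reads). The median log2 ratio of the 9 was -0.47. Over the 7 members at 1 FPKM or more in any library it was -0.48, beside 0.11 for all 12894 such genes. The counting intervals of 5 ratios (Pou3f1, Zic2, Zic5, Foxd3 and Utf1) lay below 1. The median of all genes varied with abundance. It was 0.30, with 29.4% below 0, over the 2093 genes with a mean of 1 to 3 FPKM over both libraries (as for Zic2 and Sall2), and 0.23, with 31.9% below 0, over the 3503 genes at 3 to 10 FPKM (as for Pou3f1, Foxd3 and Zic5). Over the 626 genes at 100 to 1000 FPKM, as for Utf1, it was -0.23, with 68.5% below 0. The part of abundance in the members' ratios was not tested. At passage 5 the members' median was -0.16 (-0.17 over the same 7), beside -0.02 for all genes. Only Pou3f1 and Utf1 had intervals below 1 there. From Lef1 P2 to Lef1 P5 the members' median was 0.23 (0.28 over the same 7), beside -0.17 for all genes. The intervals of Utf1, Foxd3, Otx2 and Zic2 lay above 1. The comparisons against the control share that library. Of the 6 members that reached 3 FPKM in a library, 4 (Utf1, Foxd3, Zic2 and Zic5) had their lowest level in Lef1 P2, beside 31.2% of all 10731 genes that did, and with TMM scaling 5 of 6 beside 44.0%. Sall2 and Sox3, under 3 FPKM, were also lowest there, Sox3 by 1 read.

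Base composition differed among the members. In their GENCODE transcripts Sox3 (66.4% G or C), Foxd3 (65.1%), Pou3f1 (63.9%), Utf1 (63.5%) and Zic2 (59.9%) fell in the 10% of genes richest in G or C, which began at 58.1%, whereas Otx2 was at 46.8%, Fgf5 at 47.0%, Zic5 at 49.8% and Sall2 at 53.2%. The tested genes of that richest 10% had a median log2 ratio of 0.09 at passage 2, as all tested genes did (0.09), with 8.06% called higher and 2.69% lower beside 6.49% and 1.82% of all tested genes. Their median was -0.11 at passage 5 and -0.25 between the Lef1 libraries, beside -0.02 and -0.14 for all tested genes. Between the Lef1 libraries 11.7% of them were called lower, beside 6.86% of all tested genes. The part of base composition in the members' values was not tested.

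Another 27 genes of the formative and primed state were chosen with earlier results of these data known. Of these, 22 were lower in Lef1 P2 than in the control, beside 42.4% of all tested genes. That share varied with abundance, from 29.4% of all genes at 1 to 3 FPKM to 68.5% at 100 to 1000 FPKM, and its part was not tested. The median of the 27 was -0.46, and -0.51 over the 26 that reached 1 FPKM in any library, beside 0.11 for all such genes. Of the 23 tested, 6 were called lower and 0 higher, beside 1.82% and 6.49% of all tested genes. Those called were the amino acid transporter gene Slc7a3 (from 68.0 to 25.3 FPKM), the RNA-binding protein gene Lin28b (from 6.60 to 2.03 FPKM), Sox11 (from 5.35 to 1.76 FPKM), Tcf15, a bHLH factor gene linked to readiness for differentiation (from 78.1 to 29.9 FPKM), Sox4 and the ETS factor gene Etv4. With TMM or median of ratios 8 were called lower, beside 2.89% and 2.90% of all tested genes. At passage 5 only Tcf15 remained called lower, at 32.2 FPKM, and the Nodal antagonist gene Lefty2 was called higher (from 20.7 to 63.5 FPKM). Of all tested genes, 1.28% were called lower there and 1.40% higher. Between the Lef1 libraries 5 of the list were called higher and 0 lower, beside 1.88% and 6.86% of all tested genes. They were Slc7a3 (from 25.3 to 92.0 FPKM), Lin28b (from 2.03 to 7.04 FPKM) and Lefty1 (from 6.09 to 18.4 FPKM). The others were Grhl2, an epithelial factor gene (from 3.25 to 8.86 FPKM), and the de novo DNA methyltransferase gene Dnmt3b (from 65.6 to 145 FPKM).

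Of 14 naive pluripotency genes, all tested, 1 was called at passage 2, the T-box factor gene Tbx3, which was higher (from 29.6 to 77.6 FPKM), and 0 at passage 5. Of all tested genes, 8.31% and 2.69% were called in these comparisons. The medians of the 14 were 0.04 and 0.12, of which the passage 2 value was -0.12 with either rescaling. Between the Lef1 libraries only Nr0b1, a nuclear receptor gene, was called, as higher (from 31.4 to 72.3 FPKM), beside 8.74% of all tested genes called in either direction. Among the markers of other cell types, 3 of 12 neuroectoderm, 2 of 6 trophectoderm and 2 of 8 fibroblast markers were tested at passage 2. Of these, 4 were called, beside 8.31% of all tested genes. Of the neuroectoderm markers, Nes was called higher at passage 2 (a call that ended with rescaling) and Neurod1 (7.95, 2.46 and 2.53 FPKM) lower at passage 2 and at passage 5. With either rescaling 0 of them were called higher and 2 lower at passage 2. These were Neurod1 and Tubb3, whose log2 ratio as deposited was -0.999. Neurog2 and Pax3 were at 0 in the control and Lef1 P5, and Pax6 stayed at 0.09, 0.13 and 0.08 FPKM. The trophectoderm and fibroblast lists summed to 15.0, 21.2 and 11.3 FPKM and to 19.1, 14.6 and 9.15 FPKM. The trophectoderm keratin gene Krt7 (1.68, 7.01 and 0.83 FPKM) and the mesenchymal factor gene Twist1 (1.35, 4.01 and 1.45 FPKM) were called higher at passage 2, and Thy1 (15.7, 9.54 and 7.21 FPKM) lower at passage 5. The Twist1 call ended with either rescaling and the Thy1 call with median of ratios. Elf5, Postn and Lum were not analysed here. The 12 neuroectoderm markers summed to 41.9, 26.3 and 30.9 FPKM, mostly from Tubb3 (27.3, 13.2 and 20.6 FPKM). At passage 2, 7 of them were above the control and 5 below, with a median log2 ratio of 0.08. Over the 5 that reached 1 FPKM in any library the median was -0.13, beside 0.11 for all such genes. The part of these markers in the lower levels of Pou3f1 and Zic2 was not tested.

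**Figure D4:**
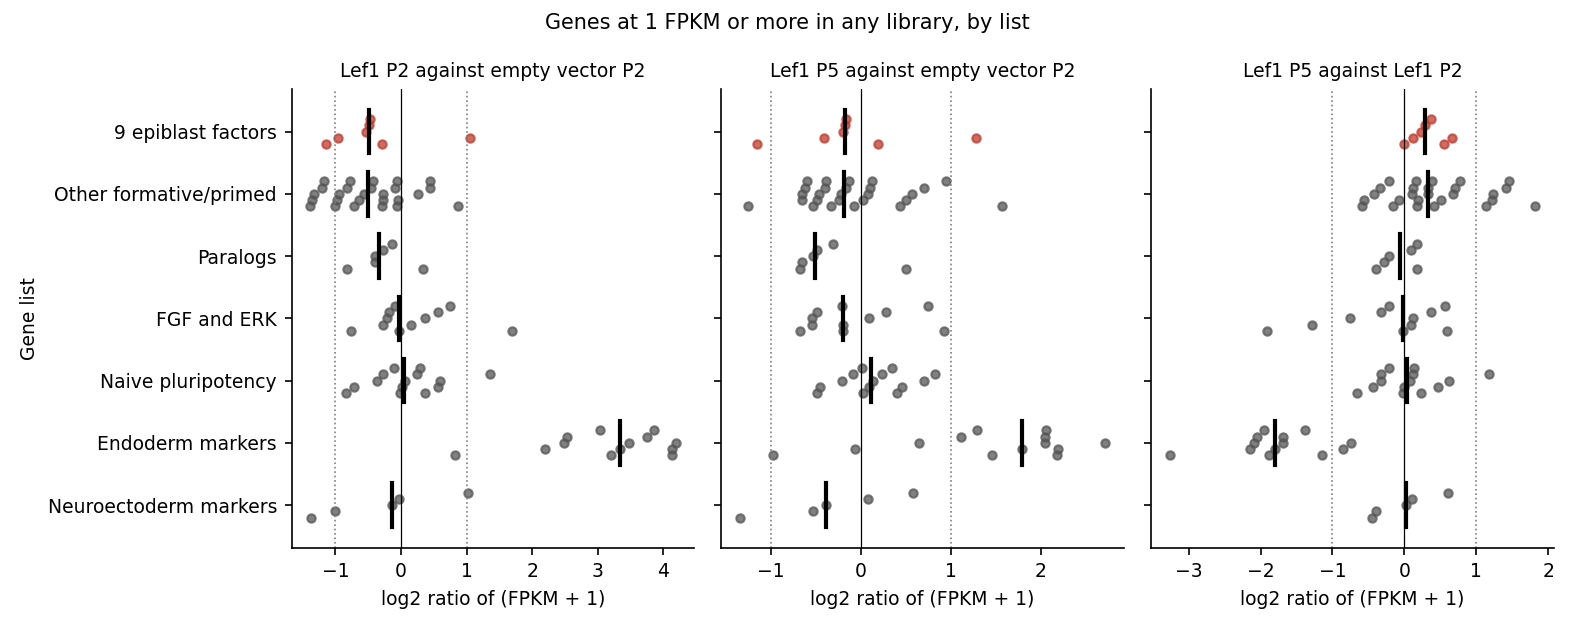
Log2 ratio of FPKM + 1 for the genes of each list that reached 1 FPKM in any library; points are genes, black bars are medians and dotted lines mark 2-fold. At passage 2 the median of the 7 members shown was -0.48 and that of the other formative and primed genes -0.51, while that of the endoderm markers was 3.34.

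For the members called in any comparison, the genes with the nearest profile were sought by the Euclidean distance between library-centred log2(FPKM + 1) values over the 3 libraries. With only 3 libraries such a profile has little detail. Of 7279 genes, the nearest to Otx2 were the pepsinogen gene Pgc (8.25, 16.9 and 21.0 FPKM, distance 0.07), the membrane scaffold gene Mpp1 (10.8, 20.9 and 24.9 FPKM, distance 0.12) and the phosphoglycerate mutase gene Pgam2 (3.96, 11.1 and 12.2 FPKM, distance 0.17), and these 3 were all that lay within 0.2. Nearest to Pou3f1 were Fkbp10 (15.0, 6.43 and 6.81 FPKM, distance 0.08), Adam23 (76.1, 37.5 and 35.1 FPKM, distance 0.10) and Prrg4 (17.0, 7.86 and 7.93 FPKM, distance 0.10), and 13 genes lay within 0.2.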

How the data were processed

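RNA-seq gene tables of 3 libraries (1 per group) were used as deposited. The submitters' processing notes name Bowtie 0.12.2 and mm8. The sources used here do not give the counting program, its strand setting or how reads matching several genes were treated. Per the file headers, the authors give an expected count and an FPKM value for each Entrez gene, with RefSeq transcripts and their length in bases. The deposited expected counts of all 9 members were whole numbers, while 8.49% to 8.61% of all listed counts were not. A gene with a row in some library and none in another was taken as 0 there. List genes with no row in any library were not analysed. Symbols came from a GRCm38 RefSeq table through the Entrez numbers (17951 of 17997 matched), and no gene in it overlapped a member. Base composition came from the longest GENCODE transcript of each gene (93.7% of genes matched, all 9 members among them).

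Computed here (Python 3.11.15, scipy 1.17.1) were log2 ratios with a pseudocount of 1 FPKM, plain FPKM ratios with exact conditional Poisson 95% intervals, and list counts and medians. Expected counts were rounded to whole numbers for the TMM factors (edgeR 4.0.16). The call rule was checked on simulated Poisson counts with planted changes, and the ratio intervals on simulated Poisson counts. Such counts hold no difference between cultures, so these checks do not cover it. Alternatives were pseudocounts of 0.1 and 5, a minimum of 1 FPKM or none, 2 other scalings, CPM (read shares with no length), and a 1.5-fold threshold. The members and the gene lists were chosen with earlier results of these data known. All 9 members are named; from other lists up to 4 called genes by size of ratio, and the most abundant markers, while further names (uncalled paralogs, the receptor and ligand genes, genes at 0, Tubb3, Pax6, Zfp42, Nanog, 2610035F20Rik, and called list genes past the limit of 4) were chosen after their values were seen. The values of a listed gene are not reported here.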

Additional observations from a re-analysis of the deposited data

Results flagged for a closer look

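Foxd3 stood on different sides of the control in the Lef1 libraries, with a log2 ratio of -0.47 at passage 2 and 0.19 at passage 5. The counting interval of the passage 5 ratio held 1 (0.948 to 1.42), both comparisons share the empty-vector library, and with 1 library per group the difference was not tested.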

How the results depend on the processing

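The counts of called members depended on 4 of the 8 alternatives. With a pseudocount of 5 FPKM, 0 members were called higher and 0 lower at passage 2, and 0 lower at passage 5. With median of ratios and with TMM scaling, 0 were called higher and 2 lower (Pou3f1 and Utf1) at passage 2. With a 1.5-fold threshold 2 were called lower at passage 2 (again with Utf1), and 1 (Foxd3) was called higher in Lef1 P5 against Lef1 P2. The pseudocount of 0.1, both minimum levels and CPM left every count of members as reported. Of 216 recomputed log2 ratios (27 ratios, 8 settings), 4 changed sign. These were Sox3 (Lef1 P5 against the control) and Pou3f1 (Lef1 P5 against Lef1 P2), each under both scalings. None of the called ratios changed sign. The share of all tested genes called, 8.31%, 2.69% and 8.74% in the 3 comparisons, was 11.3%, 4.09% and 11.9% with a pseudocount of 0.1, 3.08%, 0.662% and 2.65% with 5, 12.3%, 4.63% and 12.6% with CPM and 25.5%, 10.3% and 28.0% at 1.5-fold. No paired analysis was possible because each group has 1 library. Depth limits Fgf5 and Sox3, at 1 to 2 and 15 to 16 reads.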

Other observations

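Paralogs of the members that these cells barely express had, summed, the most reads in Lef1 P2. Otx1, the forebrain relative of Otx2, rested on 1, 13 and 3 reads in the control, Lef1 P2 and Lef1 P5, a ratio of 12.8 (1.92 to 542) at passage 2. The POU factor gene Pou3f3 rested on 2, 16 and 6 reads (ratio 8.29, 1.95 to 74.3) and the neural gene Zic1 on 1, 9 and 3 reads. Foxd1 and Foxd2 had 2, 8 and 1 reads and 2, 9 and 2 reads. The 9 paralogs under 1 FPKM in every library had 46, 97.2 and 63 reads together. Not all of them peaked in Lef1 P2. Sall3, which had the most reads of the 9, was lowest there (37, 32 and 38 reads). Pou3f2 (0, 2 and 5 reads) and Foxd4 (0, 0 and 1 reads) were highest in Lef1 P5. All 5103 genes under 1 FPKM in every library summed to 841, 1173 and 822 FPKM, so weakly expressed genes as a whole were also highest in Lef1 P2, while Zic2 and Zic5, at 1.95 to 4.14 FPKM, were lowest there. The paralogs were singled out after their values were seen.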
